A study of Capra hircus with 10 samples.

Results

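The leukocyte miRNA miR-223, miR-142, miR-146a, miR-146b, miR-150 and miR-155 were examined in the goat mammary gland. Members were taken by name, as every row whose miRNA name, without its species prefix and arm, was one of these 6. They made up 8 of the 1804 rows of mature miRNA, namely both arms of miR-223, miR-146b and miR-155 and a single row each for miR-146a and miR-150. No row carried the name miR-142, which was not analysed here. Small RNA was sequenced from the mammary gland of 10 Alpine goats, with 1 library per goat from about 150 mg of tissue. All goats were near their lactation peak (day 48 ± 2 after kidding) and had received a hay-based diet with 35% forage and 65% concentrate for 2 weeks. The 4 Control goats (libraries L01, L04, L06 and L10) then ate ad libitum for 48 h, and the 6 FD goats (the libraries L02, L03, L05, L07, L08, L09) had no food over the same 48 h. Whole tissue was used, so fewer cells of a type and less RNA per cell cannot be told apart.

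A mature miRNA guides the Argonaute complex to messenger RNA, mainly by pairing of its seed, the bases 2 to 8, and lowers their translation and stability. Several miRNA are far more abundant in blood cells than elsewhere, and a lactating gland holds leukocytes beside its epithelium, stroma and vessels. miR-223 is a miRNA of granulocytes and monocytes. miR-150 is abundant in mature lymphocytes, where it limits the transcription factor MYB. miR-155 is processed from the BIC transcript in activated lymphocytes and macrophages. miR-146a is induced by NF-κB and limits the signalling proteins IRAK1 and TRAF6, and miR-146b has the same seed but its own precursor and is also made outside leukocytes.

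The mature sequences of all 8 members as deposited are shown, since the seeds decide which members can be read as a family, with the seed in capitals, from 5′ to 3′ and with T for U.
miR-223-3p: tGTCAGTTtgtcaaatacccca
miR-223-5p: tGTGTATTtgacaagctgagttg
miR-150: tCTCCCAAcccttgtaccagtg
miR-155-5p: tTAATGCTaatcgtgataggggt
miR-155-3p: cTCCTACAtgttagcattaaca
miR-146a: tGAGAACTgaattccataggtt
miR-146b-5p: tGAGAACTgaattccataggctgt
miR-146b-3p: tGCCCTAGggactcagttctggt
The seed of miR-146a and miR-146b-5p was the same, and no other row of the 1804 had it. Both also began with the same 20 bases. Their own letters, in capitals, were the last ones only.
miR-146a: tgagaactgaattccataggTT
miR-146b-5p: tgagaactgaattccataggCTGT
A read that ended within the shared bases could not be assigned to one of them by sequence, so the split between these rows is uncertain. The seeds of the other 6 members were found in no other row. In the gene table of RefSeq for the assembly ARS1.2, MIR223 lay between the protein genes VSIG4 and PABPC5, MIR155 between MRPL39 and NCAM2, MIR146A between ATP10B and PTTG1 and MIR146B between MFSD13A and CUEDC2. MIR142 was not among its entries, and no position is given because the counts were made on another assembly.

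The libraries held from 4495512 to 7506955 counts in Control and from 5674119 to 9842009 in FD. The 8 members together took 0.499% to 1.08% of a Control library (median 0.971%) and 0.656% to 1.98% of an FD library (median 1.08%). miR-146b-5p alone gave 58.8% to 86.3% of these counts. The values below are normalized counts, which are counts divided by the size factor of the library. miRNA with a highest normalized count above 28 were tested, which left 490 of the 1804, and 7 of the 8 members were among them. miR-223-5p passed this limit only through FD libraries, the group in which it was higher, so the counts below are also given without it. Counts of different miRNA are compared here as read counts, because adapters do not ligate equally well to every sequence.

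With edgeR's quasi-likelihood test and Benjamini-Hochberg adjustment, 0 of the 7 members had an adjusted p under 0.1, and neither did any other miRNA (0% of 490, smallest adjusted p 0.152). At an unadjusted p under 0.05, 4 of the 7 were higher in FD and none was lower, where 7.55% of all miRNA tested were higher in FD at that limit. These were miR-223-3p, miR-223-5p, miR-146a and miR-150. With DESeq2 and a prior on fold changes, 2 of the 7 had an adjusted p under 0.1, both arms of miR-223. Both were called higher in FD, against 2.45% of all tested. By limma-voom, 0 of the 7 members and 0 of all 490 tested had an adjusted p under 0.1. A log2 fold change above 0 was found for 6 of the 7 members and for 50.0% of all tested, and the median log2 fold change was 0.67 for the members and 0.00 for all. In no member did every FD library exceed every Control library, which 1.22% of all tested did. Without miR-223-5p, 3 of 6 members were higher at the unadjusted limit with edgeR, 1 of 6 was called with DESeq2, 5 of 6 were above 0 and the median was 0.52.

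**Figure D1:**
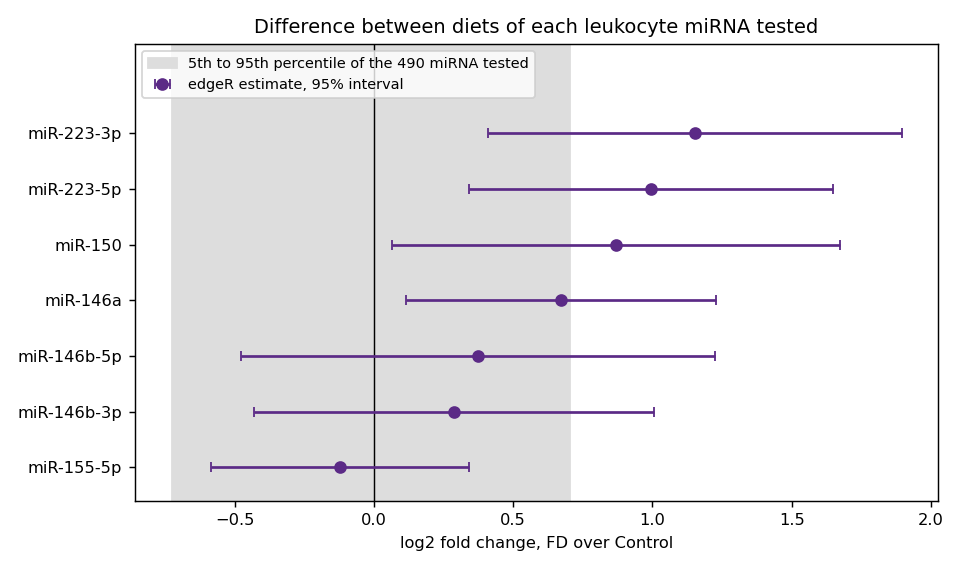
The log2 fold change (FD over Control) of each of the 7 leukocyte miRNA tested, as a point for the edgeR estimate with its 95% confidence interval. The intervals of miR-223-3p, miR-223-5p, miR-150 and miR-146a lay above 0, with estimates of 1.15, 0.996, 0.87 and 0.67, and those of miR-146b-5p, miR-146b-3p and miR-155-5p spanned 0.

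miR-223-3p, the main arm of the myeloid miRNA, had the largest difference of the members. Its normalized counts were 214.3, 402, 210 and 153 in Control libraries L01, L04, L06 and L10. They were 437 in L02, 877 in L03, 329 in L05, 386 in L07, 461 in L08 and 823 in L09, the FD libraries. The groups overlapped through the Control library L04, which was above the FD libraries L05 and L07, whereas the other 3 Control libraries were below every FD library. The Control mean was 245 ± 109 (SD, n = 4) and the FD mean 552 ± 236 (SD, n = 6), a log2 fold change of 1.15 (SE 0.34) or 2.22-fold (95% interval 1.33 to 3.72), with an adjusted p of 0.195 by edgeR. It was the ninth of 490 by p and the fifth by fold change. With DESeq2 and the prior the log2 fold change was 0.88 and the adjusted p was 0.0633. When single libraries were left out the log2 fold change stayed between 0.93 (without L10) and 1.48 (without L04), and it was above 0 in all 20 alternatives.

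miR-223-5p, the minor arm of the same precursor, was counted between 9 and 54 times per library. Its normalized counts were 19.4, 20.6, 12.6 and 15.4 in Control. They ran from 16.5 over a median of 34.1 to 48.0 in FD. Again the groups overlapped through 1 library, here the FD library L05, as 5 of the 6 FD libraries were above all Control libraries. The means were 16.98 ± 3.67 (SD, n = 4) and 34.4 ± 10.7 (SD, n = 6), a log2 fold change of 0.996 (SE 0.30) with an adjusted p of 0.195 by edgeR and 0.0907 by DESeq2 with the prior. The 3p arm gave 4694 counts over all libraries and the 5p arm 300, a ratio of 15.6. Across the 10 libraries the arms correlated with a Pearson r of 0.85 (permutation p = 0.00193, adjusted 0.00193 over 2 precursors) and a Spearman rho of 0.93 (permutation p = 0.00046, adjusted 0.00046). Without the 2 libraries farthest from the median r was 0.76, and within diets it was 0.66. The arms come from the same hairpin, so they are not separate evidence of a difference between diets.

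miR-150, the lymphocyte miRNA, had normalized counts of 2481, 4769, 3133 and 4053 in the Control libraries. In FD they were 3109, 5753, 9510, 6525, 11788 and 3184 in the same order. The FD libraries L05 and L08 were the highest, and L02 and L09 lay within the Control range, so 4 of 6 FD libraries were above all Control libraries. The means were 3609 ± 1007 (SD, n = 4) and 6645 ± 3462 (SD, n = 6). The log2 fold change was 0.87 (SE 0.37), or 1.83-fold (95% interval 1.05 to 3.19), with an adjusted p of 0.298 by edgeR and 0.176 by DESeq2 with the prior. Its unadjusted p by edgeR was over 0.05 without any 1 of L01, L05, L06, L08 or L10, with the lowest log2 fold change, 0.54, without L08 (unadjusted p 0.115), and limma-voom on all libraries gave an unadjusted p of 0.0763.

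miR-155-5p, the miRNA of activated lymphocytes and macrophages, was the member with the least difference between diets. Its normalized counts were 5456, 4334, 9280 and 5499 in Control, and from 4604 over a median of 5623 to 7256 in FD. The 6 FD libraries all lay inside the Control range, whose highest value, in L06, stood apart from the other 3. The means were 6142 ± 2160 (SD, n = 4) and 5718 ± 1017 (SD, n = 6), a log2 fold change of -0.12 (SE 0.21, 95% interval -0.59 to 0.34) with an adjusted p of 0.781 by edgeR. Without L06 the log2 fold change was 0.17, and the direction therefore depends on L06. miR-155-3p, the other arm, was counted 3, 3, 4 and 0 times in Control and 3, 0, 5, 4, 3 and 5 times in FD. It was too rare to be tested, and a count of 0 allowed up to 3 counts, in L10 and in L03. Over all libraries the 5p arm had 61409 counts and the 3p arm 30.

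miR-146a, the NF-κB-induced member, had normalized counts of 1326, 2683, 2895 and 2805 in Control. They were 3878, 2609, 4846, 4347, 4910 and 2865 in FD, in the order given above. The Control library L01 was far below the others, and L03 and L09 were the FD libraries within the Control range. The means were 2427 ± 740 (SD, n = 4) and 3909 ± 985 (SD, n = 6). The log2 fold change was 0.67 (SE 0.26), or 1.59-fold (95% interval 1.08 to 2.34), with an adjusted p of 0.269 by edgeR and 0.113 by DESeq2 with the prior. Without L01 it was 0.46 and without L08 0.52, with unadjusted p of 0.0551 and 0.0657 by edgeR.

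miR-146b-5p was the most abundant member and the 19th of the 490 miRNA by mean level. Its normalized counts were 58663, 52582, 43163 and 23302 in Control and 59700, 28654, 29641, 113248, 37121 and 79670 in FD. The highest library, L07, was 4.86 times the lowest, the Control library L10, and the groups overlapped over most of their range. The means were 44428 ± 15460 (SD, n = 4) and 58006 ± 33545 (SD, n = 6), a log2 fold change of 0.37 (SE 0.39, 95% interval -0.48 to 1.22) with an adjusted p of 0.624 by edgeR. Without L07 it was 0.08. miR-146b-3p, the minor arm, went from 125 to 256 in Control and from 130 over a median of 209 to 442 in FD, again highest in L07, with a log2 fold change of 0.29 (SE 0.33) and an adjusted p of 0.648 by edgeR. Its log2 fold change was 0.04 without L07.

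The arms of miR-146b followed each other closely. The Pearson r over the 10 libraries was 0.96 (permutation p = 5e-05, adjusted 0.0001 over 2 precursors), the Spearman rho was 0.93 (permutation p = 0.00039, adjusted 0.00046), and r was 0.92 without the 2 libraries farthest from the median and 0.96 within diets. In an average library the 5p arm had 220 times the counts of the 3p arm in Control and 226 times in FD, a difference of 0.04 on the log2 scale (exact permutation of the diets, two-sided, 210 splits, p = 0.8). For miR-223 the 5p arm was 0.0776 of the 3p arm in Control and 0.0654 in FD (exact permutation p = 0.395, adjusted 0.790). A shift between arms was not detectable in either precursor with these libraries.

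**Figure D2:**
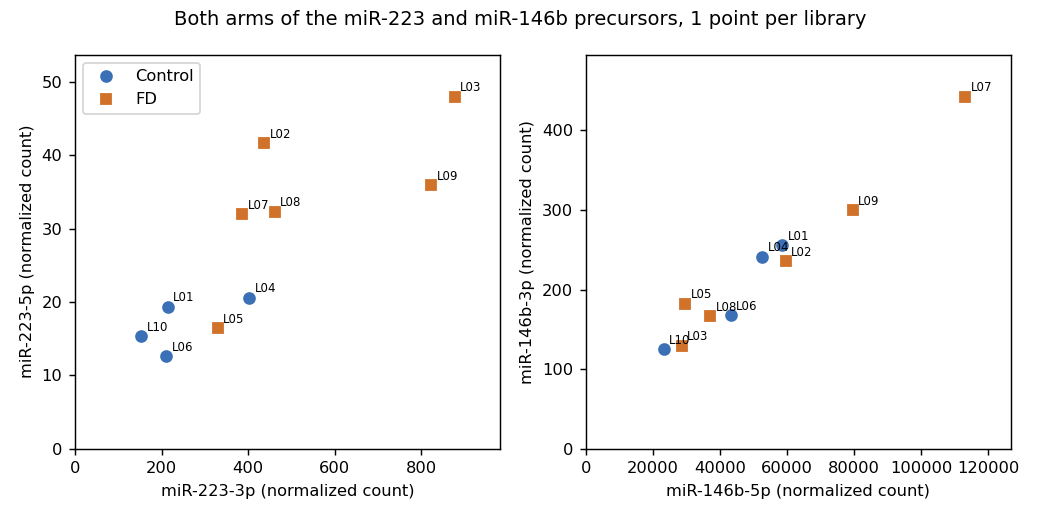
Normalized counts of both arms of miR-223 and of miR-146b, 1 point per library, with Control and FD in different colours and linear axes that start at 0. The points of miR-146b lie near a line, with a Pearson r of 0.96 on the log2 scale, and those of miR-223 spread more, with an r of 0.85.

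Since miR-146a and miR-146b-5p share their seed, their counts were also added. The Control libraries had a sum of 46855 ± 14993 (SD, n = 4) and the FD libraries one of 61915 ± 33513 (SD, n = 6). miR-146a was 2.21% to 10.7% of it in Control (median 5.57%) and 3.47% to 14.1% in FD (median 7.22%), so the sum mostly reflects miR-146b-5p, and the share depends on how reads ending in the shared bases were assigned.

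By mean normalized count over the 10 libraries the order was miR-146b-5p, miR-155-5p, miR-150, miR-146a, miR-223-3p, miR-146b-3p, miR-223-5p and miR-155-3p. miR-146b-5p was above miR-155-5p in 10 of 10 libraries, miR-146a above miR-223-3p in 10 of 10, and miR-150 above miR-146a in 9 of 10. miR-155-5p and miR-150 were not separated, as miR-155-5p was the higher in 6 of 10 libraries only. miR-223-3p was above miR-146b-3p in 8 of 10. The most abundant member and miR-223-3p, the member with the largest difference between diets, were thus the first and the fifth in level.

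**Figure D3:**
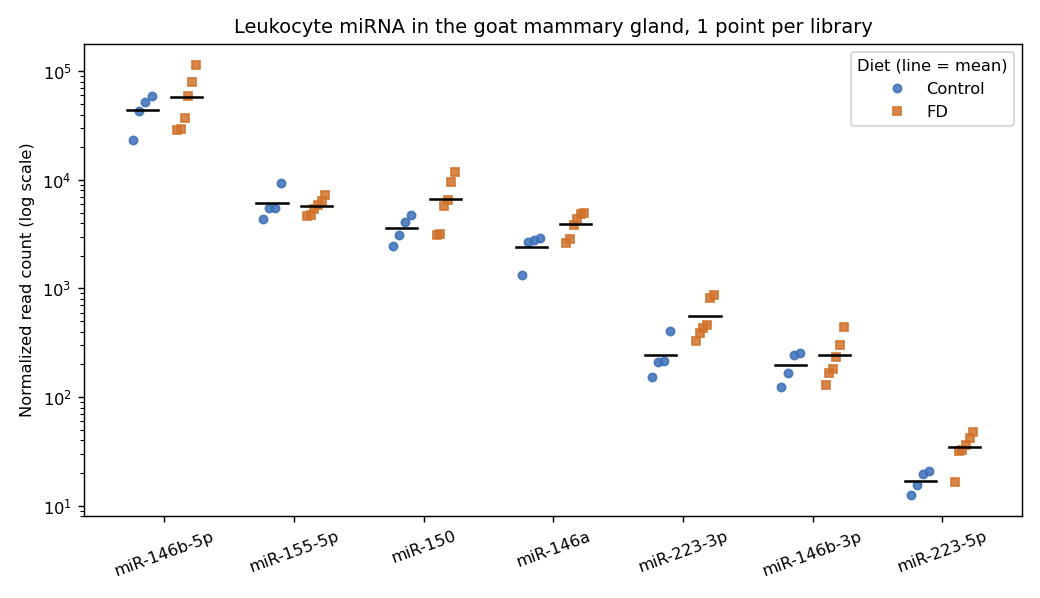
Normalized counts of 7 leukocyte miRNA on a log scale, 1 point per library, with a line at the mean of each diet. miR-146b-5p lay above the others in every library, and the diets stood farthest apart in miR-223-3p (means of 245 and 552) and overlapped fully in miR-155-5p.

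Ratios within a library do not depend on its scaling, and 10 pairs of the 5 main arms were compared by exact permutation of the diets (two-sided, 210 splits), whose smallest possible p is 0.00476. No pair passed after adjustment over the 10. miR-146a over miR-155-5p was 0.243 to 0.619 in Control and 0.532 to 0.827 in FD, or 1.71-fold higher in FD (exact permutation p = 0.0286, adjusted 0.286), with 3 of 6 FD libraries above all Control libraries. miR-223-3p over miR-155-5p was 0.0228 to 0.0930 in Control and 0.0533 to 0.191 in FD, or 2.33-fold higher (exact permutation p = 0.0619, adjusted 0.310). miR-223-3p over miR-146b-5p was 1.85-fold higher in FD (exact permutation p = 0.148, adjusted 0.369), and miR-150 over miR-155-5p was 1.76-fold higher (exact permutation p = 0.114, adjusted 0.369). miR-150 over miR-146a was 1.51 in Control and 1.55 in FD (exact permutation p = 0.895). Its range was 1.08 to 1.87 in Control and 0.802 to 2.40 in FD, so unequal differences of these 2 members were not detectable but remain possible.

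The libraries in which the members were high were only partly the same, and miR-150 and miR-146a shared theirs. miR-223-3p was highest in L03 and L09, miR-150 in L05 and L08, miR-146a in L08 and L05, miR-146b-5p in L07 and L09 and miR-155-5p in L06 and L07. In FD library L07 all 5 main arms were above their own mean over the libraries, and in Control library L10 none was. Of the 10 pairs, miR-150 and miR-146a had the highest Pearson r, at 0.74 (permutation p = 0.0129, adjusted 0.129) with a Spearman rho of 0.58 (permutation p = 0.0897). By rank, miR-146a and miR-155-5p were the highest, with a rho of 0.60 (permutation p = 0.0740, adjusted 0.449) and a Pearson r of 0.25. For miR-150 and miR-146a, r was 0.53 without the 2 libraries farthest from the median, L05 and L08. It was 0.61 within diets (permutation p = 0.0619, shuffled over all 10 libraries). Without regard to diet no other pair had a Pearson r beyond 0.41 in size, and none passed after adjustment. Within diets, miR-223-3p had an r of -0.24 with miR-150, -0.48 with miR-146a and -0.49 with miR-155-5p. miR-150 and miR-146b-5p had one of -0.47. Their adjusted permutation p were 0.658 for the first and 0.433 for the others. The number of 10 libraries limits what can be read from them.

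**Figure D4:**
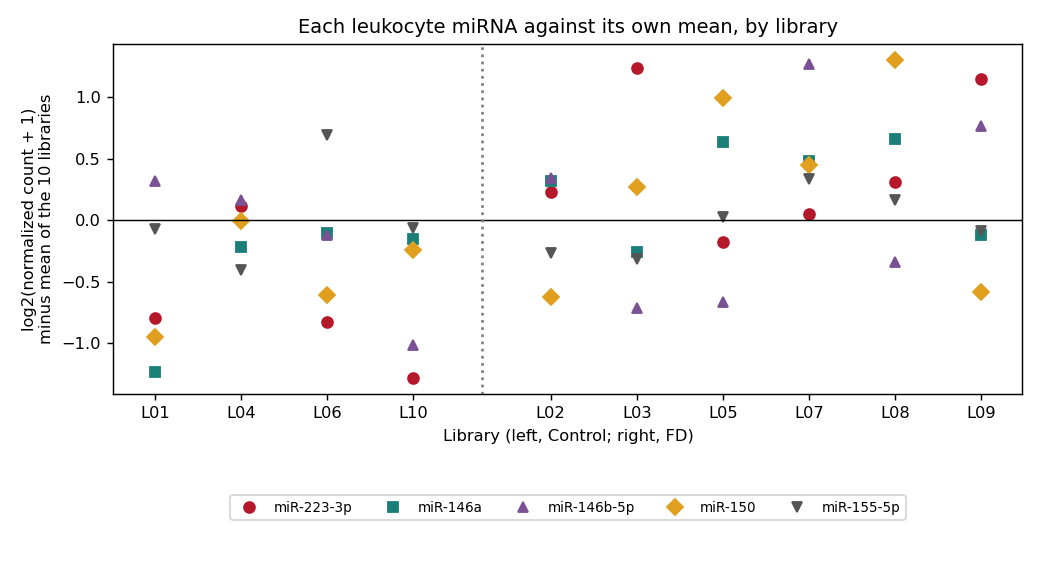
Deviation of each of the 5 main arms from its mean over the 10 libraries, as log2(normalized count + 1), with 1 point per miRNA and library, Control at the left and FD at the right. In L10 all 5 lay below 0 and in L07 all 5 above 0, and the members took different orders in the libraries between.

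For each main arm the 3 miRNA of other precursors with the most similar pattern over the 10 libraries were taken by Pearson r of log2(normalized count + 1), as a description with no test. The tightest pattern was that of miR-150. Its nearest miRNA were miR-221-3p (r = 0.99), miR-222-3p (r = 0.97) and miR-93-5p (r = 0.97), and r with miR-221-3p was 0.98 within diets. miR-221-3p and miR-222-3p are processed from the same cluster, and miR-93 belongs to the miR-106b cluster. Their normalized counts were 1208 ± 338 and 2327 ± 1158 for miR-221-3p, in Control (SD, n = 4) and FD (SD, n = 6). For miR-222-3p they were 812 ± 172 and 1408 ± 528, with the same numbers of libraries. Their log2 fold changes were 0.93 and 0.78, with adjusted p of 0.269 and 0.237 by edgeR. In miR-221-3p, too, L05 and L08 were the highest libraries, at 3653 and 3806.

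**Figure D5:**
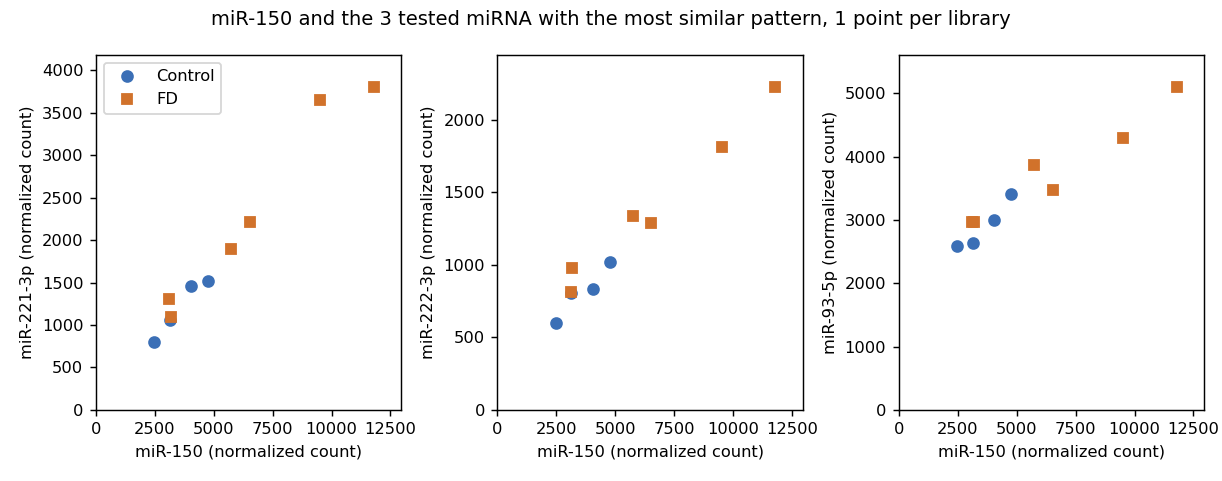
Normalized counts of miR-221-3p, miR-222-3p and miR-93-5p against miR-150, 1 point per library, with linear axes that start at 0. All 3 rise with miR-150 in Control and FD libraries, and the FD libraries L05 and L08 lie at the upper end.

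The patterns of the other members were matched less closely. The nearest named miRNA of miR-223-3p were miR-101-3p (r = 0.74) and miR-145-3p (r = 0.72), behind a predicted miRNA with a mean of 11.4 normalized counts (r = 0.90). For miR-146a they were miR-16b-3p (r = 0.91) and miR-125a-3p (r = 0.87), both rare. For miR-146b-5p they were miR-194 (r = 0.85) and miR-335-3p (r = 0.83), and for miR-155-5p miR-655 (r = 0.68), with predicted miRNA in the remaining places. The points of each pair share library and depth.

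Other cell types of the gland were checked with lists of miRNA named for them. Epithelial miRNA (the miR-200 family, miR-141, miR-429 and miR-205), which mark the labelled tissue, were present in every library. Their summed normalized count was 221821 to 245827 in Control and 173950 to 243961 in FD. Of the 10 tested, 8 had a log2 fold change below 0, where 50.0% of all tested were above 0. These 8 were all rows of miR-200, miR-141 or miR-429. They hold 2 rows each of miR-200a, miR-200b and miR-200c, so they are not 8 separate miRNA. Both arms of miR-205 were above 0, at 0.41 for miR-205-5p and 0.20 for miR-205-3p. miR-375 and miR-203, also on the list, had no row. At an unadjusted p under 0.05 by edgeR, 2 of the 10 tested (miR-200b and miR-429) were lower in FD. Of all 490 tested, 77 had such a p in either direction, and 37 of them were higher in FD. All 8 other leukocyte rows tested had a log2 fold change above 0, against 50.0% of all tested. They hold 2 rows each of miR-342, miR-181a and miR-21, so they are not 8 separate miRNA. Their median was 0.19, and none had an unadjusted p under 0.05 by edgeR. The sum of this list was 307193 to 352429 in Control and 298008 to 446068 in FD. It was mostly miR-181a-5p and miR-21-5p, so it says little about the other miRNA of the list. Their means were 190136 and 135178 in Control, where the mean sum was 335263, and 214173 and 154375 in FD, where it was 379809. The list also held miR-147 and miR-181b, and its miR-511 and miR-132 had no row. miR-342-3p, which is abundant in lymphocytes, was at 2790 ± 454 (SD, n = 4) and 3564 ± 809 (SD, n = 6), a log2 fold change of 0.34 with an adjusted p of 0.397 by edgeR. For stromal and smooth muscle miRNA (miR-143, miR-145, miR-199a, miR-199b and miR-214) 6 of 8 rows were above 0, against 50.0% of all tested. miR-143-5p (-0.34) and miR-145-5p (-0.15) were below 0. They hold 2 rows each of miR-143, miR-145 and miR-214, so they are not 8 separate miRNA. Their sum was 690407 to 928572 in Control and 579433 to 1136230 in FD. It was mostly miR-143-3p, at a mean of 722366 in Control and 790695 in FD, where the mean sums were 756168 and 823815.

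The miRNA of blood and vessels also had log2 fold changes above 0, as did 50.0% of all tested. The erythroid rows (3 tested, miR-451-5p and both arms of miR-144, all above 0) had a sum of 3750 to 6061 in Control and 5961 to 8756 in FD. miR-486, also on that list, had no row. Of these, miR-451-5p had a log2 fold change of 0.46 (SE 0.15) with an adjusted p of 0.195 by edgeR, and 5 of 6 FD libraries were above all Control libraries. Both arms of the endothelial miR-126 were higher in FD at an unadjusted p under 0.05 by edgeR, against 7.55% of all tested. Their sum was 117544 to 144955 in Control and 136542 to 197735 in FD. miR-126-3p was above all Control libraries in 6 of 6 FD libraries, a pattern found in 1.22% of all tested. Its log2 fold change was 0.37, with an adjusted p of 0.195 by edgeR. None of the list members had an adjusted p under 0.1. Set against miR-451-5p in the same library, miR-223-3p was 1.60-fold higher in FD (exact permutation p = 0.176, adjusted 0.440), miR-150 1.21-fold (p = 0.605, exact) and miR-146a 1.17-fold (p = 0.586, exact), and against miR-126-3p they were 1.70-fold (exact permutation p = 0.0952, adjusted 0.440), 1.28-fold (p = 0.448, exact) and 1.24-fold (p = 0.395, exact). None of the 10 ratios to these 2 miRNA passed after adjustment. Both reference miRNA were themselves higher in FD by estimate, so ratios to them had to be lower than the differences in level. miR-155-5p was 0.687-fold against miR-451-5p and 0.727-fold against miR-126-3p, and miR-146b-5p was 0.866-fold and 0.917-fold. The part of blood and vessel content in the differences between diets was not tested.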

How the data were processed

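Small RNA was sequenced in 10 mammary glands of Alpine goats (4 Control and 6 FD), 1 library per goat. The deposited values are read counts per mature miRNA. The authors trimmed adapters (Cutadapt), kept reads of 17 to 28 nt and mapped these to CHIR_1.0. Their counting used the miRDeep2 quantifier with miRBase 21 and predicted precursors, and redundant miRNA were then dropped. Base calling was done with CASAVA 1.8.2 according to the submitters' processing notes, and versions of the other tools are not given in the sources used here. No molecular identifiers are described, so the limit given for a count of 0 covers counting error only, whereas the intervals of fold changes come from the spread between goats. The 10 columns of normalized counts made by the authors and the table of predicted precursors were not used. Sequences came from the deposited tables.

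Counts were divided by median-of-ratios size factors (DESeq2 1.42.0) from all 1804 miRNA. Those with a highest normalized count above 28 were compared, FD over Control, with edgeR 4.0.16 (TMM, quasi-likelihood, two-sided, no covariates) in R 4.3.3, with Benjamini-Hochberg adjustment at 0.1. Ratios used 1 added count and exact permutation over 210 splits at 0.05. Correlations used 100000 permutations (scipy 1.17.1). For correlations within diets the diet means were subtracted first. The deviations were then shuffled over all 10 libraries and not within each diet, so these p-values are approximate. Alternatives were DESeq2 with and without a prior, limma-voom (limma 3.58.1), other scalings, other filters and each library left out in turn. Members, marker lists and the named miRNA (members, marker miRNA and the 3 nearest per main arm) were chosen with earlier results of these data known. In simulated counts of 490 miRNA (200 changed), edgeR recovered 42% of the 1.5-fold, 86% of the 2-fold and 97% of the 3-fold changes. So many changed miRNA make the adjusted threshold more lenient than in these data, where edgeR called 0. These rates are therefore not those for a change of that size in these data. Each goat gave 1 library, so p-values for diet set the difference between diets against the spread between goats.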

Additional observations from a re-analysis of the deposited data

Results flagged for a closer look

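In Control, miR-146a was lowest in library L01, at a normalized count of 1326, and the other 3 Control libraries lay between 2683 and 2895. The gap was 0.865 of the whole range, above Dixon's limit for 4 samples. It was the only one of 16 groups of member values past its limit, and chance alone takes about 1 group in 20 past it. In the same library miR-146b-5p was the highest of the Control libraries, at 58663, which is a measured value of a row that shares its first 20 bases with miR-146a. Whether the split of reads between these rows bears on the low value was not tested.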

How the results depend on the processing

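Of the values recomputed under alternatives, 480 kept direction and side of the threshold and 17 changed sign. Over all miRNA tested, the number with an adjusted p under 0.1 was 0 with edgeR, 26 and 27 with DESeq2 with and without a prior, 5 without a filter, 1 with known miRNA alone and 0 to 1 when single libraries were left out (1 without FD library L02). Among the members it was 2 with DESeq2, with and without the prior (both arms of miR-223), and 1 without a filter (miR-223-3p). The cause was not tested. Ranges on the log2 scale when each library was left out, in which the sign changed, were -0.29 to 0.17 for miR-155-5p between diets, -0.12 to 0.23 for miR-150 over miR-146a, -0.13 to 0.48 for miR-146a over miR-451-5p, -0.040 to 0.52 for miR-146a over miR-126-3p, -0.42 to 0.043 for miR-146b-5p over miR-126-3p and -0.040 to 0.14 for miR-146b-5p over miR-146b-3p. Correlations that changed sign were, within diets, -0.24 (miR-223-3p and miR-150) and -0.48 (miR-223-3p and miR-146a), and without 2 libraries 0.0077 (miR-150 and miR-146b-5p), -0.082 (miR-150 and miR-155-5p), 0.27 (miR-146a and miR-146b-5p) and -0.15 (miR-146b-5p and miR-155-5p). No paired analysis was possible because each library number names a different goat and none is shared between the diets. Depth limits miR-155-3p, at 0 to 5 counts per library, and miR-223-5p, at 9 to 54.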
